A study of Mus musculus with 9 samples.

Results

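Dppa4 peaks were examined in a stretch of chromosome 5 from 125 to 130 Mb and a stretch of chromosome 9 from 115 to 120 Mb, in the mm9 mouse assembly. These 2 bins of 5 Mb were chosen because the 3T3 libraries had a low share of their peaks there, so that low share is a description and not a finding. All peaks of the 6 deposited lists that start inside the bins were taken, which gave 1381 of 229345 peaks. The rest of chromosomes 5 and 9, with 26265 peaks, served for comparison.

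DPPA4 was mapped by chromatin immunoprecipitation and sequencing (ChIP-seq) in 3 mouse lines, each with 2 libraries from the DPPA4 antibody and 1 from input chromatin. E14 cells are embryonic stem cells, and were kept free of feeders on gelatin, in 2i medium with 2% serum. P19 cells are embryonic carcinoma cells, and were kept in DMEM with 10% serum and glutamine. The 3T3 cells, a fibroblast line, expressed Dppa4 ectopically and were grown in the same medium as P19. The labels name neither the vector nor whether the cells were a single clone, and no 3T3 immunoprecipitation without Dppa4 was analysed here. The input libraries were not used here. Whether a line's 2 libraries stem from different cultures is not stated, and their spread may therefore be technical.

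DPPA4 (developmental pluripotency associated 4) is a nuclear protein with a DNA-binding SAP domain that works together with its relative DPPA2. Both are made in early embryos, germ cells and pluripotent stem cells, and both are lost on differentiation. In embryonic stem cells the pair is known to sit at promoters with both activating and repressive histone marks and to keep such genes able to respond. Fibroblasts normally lack DPPA4, so the 3T3 cells show where the protein is found when it is added to another chromatin setting.

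Each list gives a peak's position and a score from the authors' peak caller, with no gene name and no read count. Read depth is therefore unknown. The E14 lists hold 61693 and 43443 peaks, the P19 lists 40011 and 51196, and the 3T3 lists 15462 and 17540. The scale of the score is not named in the files. Scores were therefore compared only as percentile ranks within a list, where 100 is the strongest peak. Ranges in parentheses after a share are 95% Wilson intervals. They take in only counting error, and they assume that peaks are independent of each other.

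With all peaks counted, the 2 bins held a smaller share of the 3T3 peaks than of the E14 or P19 peaks. In the chromosome 5 bin lay 222 and 139 peaks of the E14 libraries, 136 and 166 of the P19 libraries, and 30 and 34 of the 3T3 libraries. As shares of the list these were 0.36% and 0.32% in E14, 0.34% and 0.324% in P19, and 0.194% in both 3T3 libraries. Both 3T3 shares lay below all 4 shares of the other lines, and the E14 and P19 shares overlapped. The 3T3 mean was 0.571-fold the E14 mean and 0.584-fold the P19 mean.

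In the chromosome 9 bin lay 202 and 141 peaks of the E14 libraries, 109 and 140 of the P19 libraries, and 30 and 32 of the 3T3 libraries. The shares were 0.327% and 0.325% in E14, 0.272% and 0.273% in P19, with 0.194% and 0.182% in 3T3. The order was E14, P19, 3T3, with no overlap between lines. The 3T3 mean was 0.577-fold the E14 mean and 0.69-fold the P19 mean. Over both bins the mean share was 0.666 ± 0.0302% in E14, 0.605 ± 0.0103% in P19 and, for 3T3, 0.382 ± 0.00832% (SD, n = 2 each).

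Low 3T3 shares of this kind were common. Of 536 bins of 5 Mb in the genome with at least 50 peaks over the 6 lists, 178 (33.2%) had both 3T3 shares below all 4 shares of E14 and P19. Another 124 bins (23.1%) had both 3T3 shares above. Counted from the lowest ratio of the 3T3 share to the mean share of E14 and P19, the chromosome 5 bin ranked 74 and the chromosome 9 bin 92 of 536. Of the 91 bins with a lower ratio than the chromosome 9 bin, 4 were as dense in E14 and P19 peaks, the chromosome 5 bin among them. As dense means that a bin held at least 0.299% of those peaks, which is the chromosome 9 bin's own mean share. Among all 88 bins of that density the described bins ranked 2 and 5, with ratios of 0.577 and 0.629 against a median of 1.03. The density limit was set after the data were seen, and 21 of those 88 bins (23.9%) also had both 3T3 shares below the rest. The described bins were chosen for a low 3T3 share, so their ranks are a description.

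The chromosome 5 bin was not an isolated low point, as the plot of the ratio along both chromosomes shows. The ratio was 0.635 from 110 to 115 Mb and 0.588 from 115 to 120 Mb, in bins that held more peaks than the described one. It was 0.812 from 120 to 125 Mb, just before the bin, and 0.85 from 130 to 135 Mb, just after it. On chromosome 9 the neighbouring bins were closer to an even share, with ratios of 0.891 from 110 to 115 Mb and 0.97 from 120 to 125 Mb. The limits of the bins are arbitrary with respect to peaks. In E14 replicate 1 the last peak before the chromosome 5 limit started 9.42 kb ahead of it at percentile 71.2, and the first peak inside started 2.73 kb after it at percentile 51.1.

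**Figure D1:**
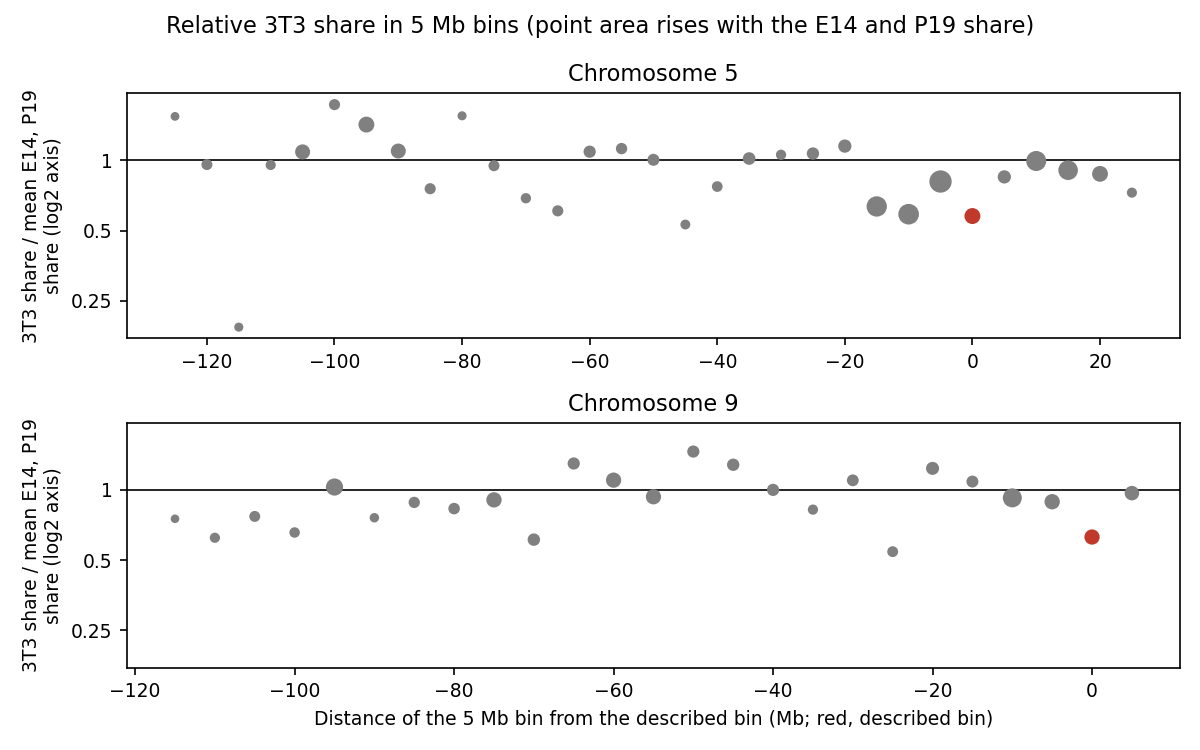
Ratio of the mean 3T3 share to the mean share of the E14 and P19 libraries in 5 Mb bins (log2 axis) against the distance in Mb from the described bin, for chromosome 5 (top) and chromosome 9 (bottom). Red points are the described bins (0.577 and 0.629), point area rises with the E14 and P19 share, and other bins of both chromosomes reach similar or lower ratios.

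The bins were not chosen for a difference between E14 and P19, but the shares of both lines served as the reference in that choice. A test of E14 against P19 is given as a description only. With 2 libraries a line its p cannot fall below 0.333, so it cannot decide whether the lines differ. In the chromosome 5 bin the E14 mean was 1.02-fold the P19 mean, and the libraries of the lines overlapped (exact two-sided permutation test, p = 1, n = 2 each). In the chromosome 9 bin the E14 mean was 1.19-fold the P19 mean, 0.326 ± 0.00203% against 0.273 ± 0.000731% (SD, n = 2 each). Both E14 libraries lay above both P19 libraries there, as they did in 24.6% of the 536 bins. The exact two-sided permutation p was 0.333, the smallest that 2 libraries against 2 can give, so the design cannot bring this difference under 0.05.

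Over both bins, the difference in share was smaller when only the best-scoring peaks of the lists were kept. The full lists were longer in E14 and P19 than in 3T3. Cutting them to equal length also removes their low-scoring peaks, so list length and score cannot be told apart here. With the best-scoring 50% of each list, which leaves the lengths unequal, the ratios over both bins were 0.771 to E14 and 0.843 to P19. When every list was limited to its 15462 best-scoring peaks, the bins held 70 and 64 peaks of the E14 libraries, 63 and 60 of the P19 libraries, and 60 and 62 of the 3T3 libraries. The mean shares were then 0.433 ± 0.0274% in E14, 0.398 ± 0.0137% in P19 and, for 3T3, 0.395 ± 0.00915% (SD, n = 2 each). The 3T3 and P19 libraries overlapped, and the 3T3 mean was 0.91-fold the E14 mean and 0.992-fold the P19 mean.

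The bins differed in this respect. In the chromosome 5 bin, equal lists gave E14 43 and 35 peaks, P19 35 and 36, and 3T3 30 and 32. Both 3T3 libraries remained below the other 4, as they did in 40.7% of the 536 bins with lists of that length, and the ratios were 0.795 to E14 and 0.873 to P19. In the chromosome 9 bin, equal lists gave E14 27 and 29 peaks, P19 28 and 24, and both 3T3 libraries 30. Here both 3T3 libraries lay above the other 4, as in 26.5% of bins, and the ratios turned to 1.07 and 1.15. The label of a bin poor in 3T3 peaks therefore did not hold for the chromosome 9 bin with lists of equal length. With the best-scoring 50% of each list the ratios of the means were 0.758 to E14 and 0.86 to P19. Over the library pairs of equal number the SD was 0.33 for the first, a wide spread, and 0.0547 for the second. Among all 536 bins, the chromosome 5 bin then ranked 230 from the lowest ratio and the chromosome 9 bin 338. Among the 88 bins dense in E14 and P19 peaks, the median ratio with equal lists was 1.23. Within that subset alone, the chromosome 5 bin ranked 2 from the lowest and the chromosome 9 bin 24.

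**Figure D2:**
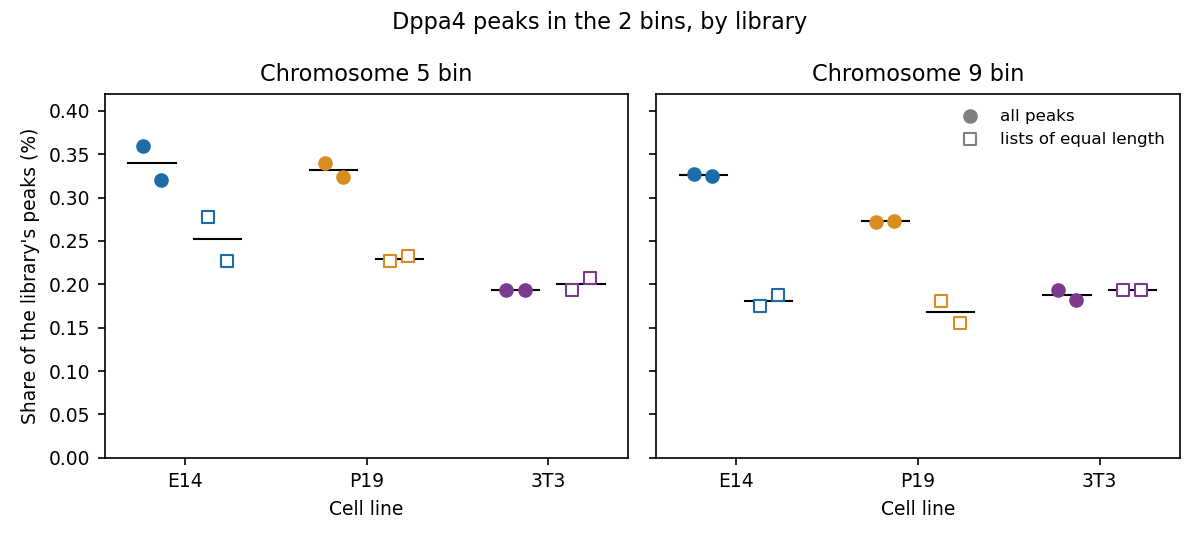
Share of a library's peaks (%) that start in the chromosome 5 bin (left) and the chromosome 9 bin (right), by cell line. Filled circles are single libraries with all peaks, open squares the same libraries limited to 15462 peaks, and short lines the means of 2 libraries. The 3T3 libraries lie lowest with all peaks and, in the chromosome 9 bin, highest with lists of equal length.

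Score ranks in the bins also differed between the lines. Peaks of the bins ranked lower than those of the rest of chromosomes 5 and 9 in every E14 and P19 library, but not in the 3T3 libraries. The median percentile in the bins was 43.5 and 36.5 in the E14 libraries, against 47.8 and 47.7 in the rest. It was 39.4 and 42.7 in the P19 libraries, against 47.8 and 48.2. It was 49.98 and 55.1 in the 3T3 libraries, against 49.6 and 51.2. The difference of bins and rest was -7.78 ± 4.85 percentile points in E14, -6.99 ± 2.04 in P19 and, for 3T3, 2.12 ± 2.52 (SD, n = 2 each). It was negative in 4 of 4 E14 and P19 libraries and positive in 2 of 2 3T3 libraries, although in 3T3 replicate 1 it was only 0.336. The 3T3 direction held in both libraries only with the bins pooled. In the chromosome 5 bin the 3T3 medians were 55.4 and 49.8, against 51.3 and 52.3 in the rest of that chromosome. In the chromosome 9 bin they were 33.3 and 58.8, against 47.8 and 49.4. The bins were chosen on peak shares of the same libraries, 3T3 against the other lines, so no test was made of this difference in rank between lines.

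Peaks of the strongest 10% of each list were scarce in the bins in E14 and P19. Peaks above percentile 90 made up 4.25% (2.70 to 6.61) and 3.21% (1.70 to 5.99) of the bins' peaks in the E14 libraries, against 8.54% and 8.76% in the rest. In the P19 libraries they made up 3.67% (1.94 to 6.83) and 3.27% (1.78 to 5.91), against 8.38% and 8.17%. In 3T3 they made up 11.7% (5.77 to 22.2) and 12.1% (6.27 to 22.1), against 8.95% and 8.27%, a difference within the intervals. Many P19 peaks are tied at a score of 3100. Only 2 peaks of the bins reached it in each P19 library, or 0.816% and 0.654%, against 3.14% and 3.59% in the rest. E14 had 1 and 2 such peaks in the bins, or 0.236% and 0.714%, against 0.319% and 0.242% in the rest. The E14 libraries thus differed in direction at this score. The 3T3 libraries had none in the bins, against 0% and 0.154% in the rest.

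Splitting each list into 4 equal parts by score gave the same picture from the side of the shares. Of the lowest-scoring 25% of peaks, the bins held on average 0.883% in E14, 0.79% in P19 and 0.349% in 3T3, so the 3T3 share was 0.396-fold and 0.442-fold that of the other lines. In the next 25% the ratios were 0.511 and 0.559, and in the one above 0.529 and 0.538. Of the highest-scoring 25%, the bins held 0.397% in E14, 0.321% in P19 and 0.461% in 3T3, and the ratios were 1.16 and 1.44. The 3T3 counts behind these values are small, with 18 and 20 peaks in the highest part and 12 and 17 in the lowest. In the rest of chromosomes 5 and 9 the ratios also rose with score, but over a narrower range, from 0.863 and 0.874 in the lowest part to 1.02 in the highest for both lines. This split was chosen after the data were seen.

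**Figure D3:**
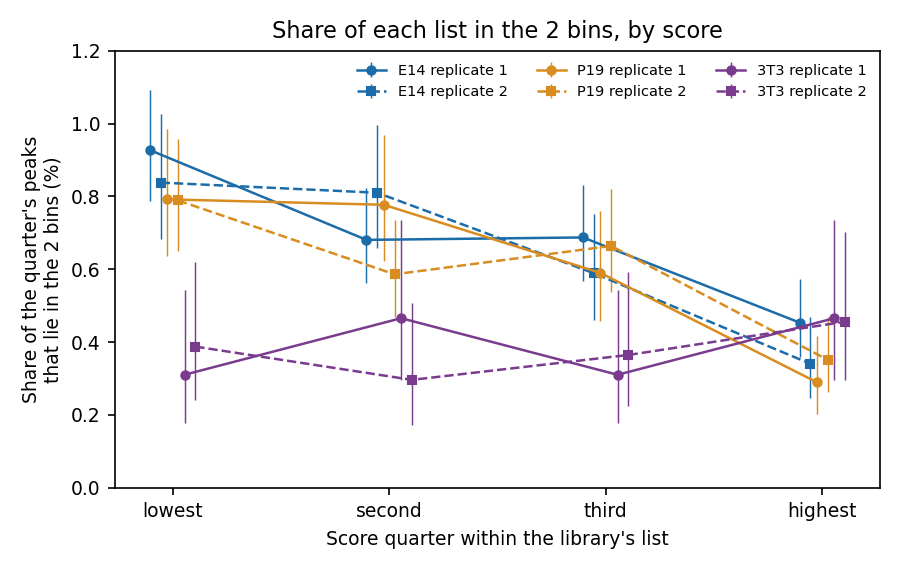
Share (%) of the peaks in each 25% of a library's list that lie in the 2 bins, from the lowest-scoring to the highest-scoring part. Points are single libraries with 95% Wilson intervals. E14 and P19 fall from about 0.8 to 0.9% to under 0.5%, while the 3T3 libraries are no lower in the highest part than in the lowest and reach 0.466% and 0.456% there.

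The peaks were bunched within the bins, and in much the same places in all lines. On chromosome 5 the first window of 1 Mb, from 125 to 126 Mb, held the most peaks of every library: E14 had 127 and 79 there, P19 81 and 93, and 3T3 20 and 24. This was 56.0% to 59.6% of the bin's peaks in E14 and P19 and 66.7% and 70.6% in 3T3. The window from 127 to 128 Mb held the fewest in E14 (10 and 8) and P19 (7 and 9), and the window from 126 to 127 Mb the fewest in 3T3, with 1 peak in each library. In the last window, from 129 to 130 Mb, E14 had 52 and 32 peaks and P19 32 and 42, but 3T3 only 5 and 4. Outside the densest window the 3T3 share was 0.417-fold that of E14 and 0.435-fold that of P19, against 0.687-fold and 0.693-fold inside it.

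On chromosome 9 the last window, from 119 to 120 Mb, held the most peaks of every library: E14 had 109 and 74 there, P19 64 and 75, and 3T3 15 and 18. The window from 116 to 117 Mb held the fewest in E14 (6 and 5) and P19 (2 and 4). It held 2 and 3 peaks in 3T3, where the first window was lowest over both libraries with 2 and 1. In that first window, from 115 to 116 Mb, E14 had 26 and 18 peaks and P19 11 and 16. The 3T3 share in the densest window was 0.575-fold that of E14 and 0.651-fold that of P19, close to 0.58-fold and 0.739-fold in the other windows together.

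**Figure D4:**
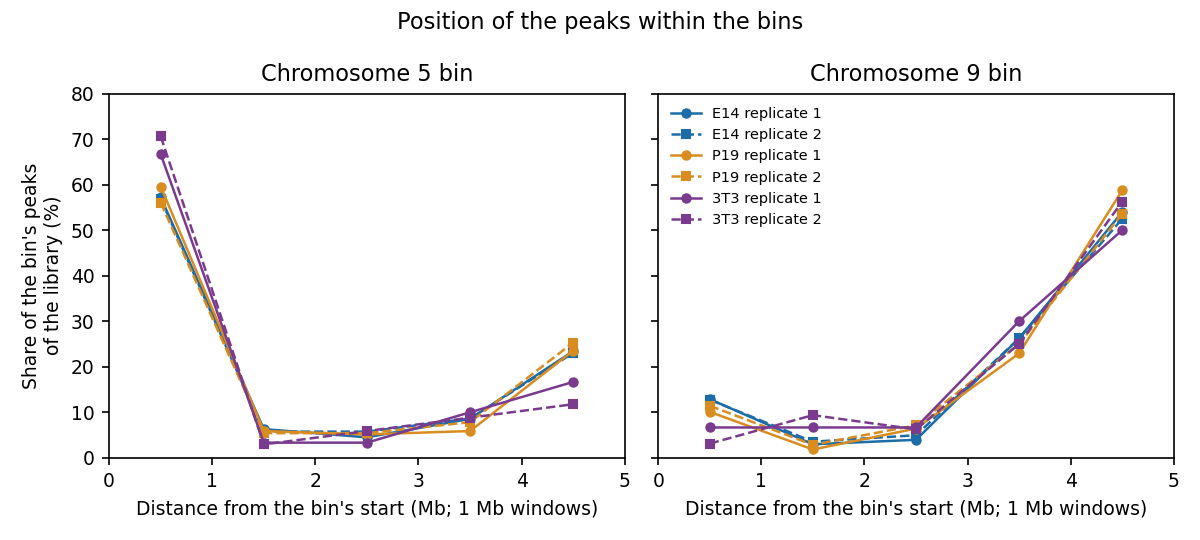
Share (%) of a library's peaks of the bin that fall in each 1 Mb window, against the distance from the bin's start in Mb, for the chromosome 5 bin (left) and the chromosome 9 bin (right). Lines are single libraries. All 6 libraries peak in the first window on chromosome 5 and in the last window on chromosome 9.

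The longest stretch without a 3T3 peak in either library ran over 1061471 bp on chromosome 5, from 126013766 to 127075236. E14 had 13 and 8 peaks inside it and P19 5 and 6. These made 2 regions held by both lines, 6 of E14 alone and 2 of P19 alone. On chromosome 9 it ran over 862963 bp, from 115220505 to 116083467. E14 had 14 and 9 peaks inside it and P19 5 and 8, which made 2 regions of both lines, 6 of E14 alone and 1 of P19 alone. The stretches were defined by the absence of 3T3 peaks, and these counts describe what lay inside them.

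Peaks in the bins were about as reproducible as elsewhere in E14 and 3T3. Of the peaks in the bins, 62.5% and 86.4% in the E14 libraries overlapped a peak of the other library by at least 1 bp, against 64.9% and 86.0% in the rest of the chromosomes. In 3T3 the shares were 85.0% (73.9 to 91.9) and 66.7% (54.7 to 76.8), against 87.2% and 61.3%. In P19 they were 79.6% (74.1 to 84.2) and 59.8% (54.2 to 65.1), against 86.6% and 63.7%. P19 replicate 1 thus had the clearest deficit, which lay in the chromosome 5 bin (74.3%) rather than the chromosome 9 bin (86.2%). Peaks were slightly narrower in the bins in E14 and P19, with median widths 0.959 ± 0.0023 and 0.927 ± 0.0128 times those of the rest, and 1.03 ± 0.0417 times in 3T3 (SD, n = 2 each). With lists of equal length the direction turned, to 1.04 times in E14 and 1.07 times in P19.

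Peaks found in both libraries of a line were joined into reproducible regions, and those of different lines were merged on overlap. The bins held 278 merged regions, 146 on chromosome 5 and 132 on chromosome 9. E14 and P19 without 3T3 held 108 of them (38.8%, 33.3 to 44.7), close to 39.9% in the rest of the chromosomes. E14 alone held 92 (33.1%, 27.8 to 38.8), against 23% in the rest. All 3 lines held 34 (12.2%, 8.89 to 16.6), against 14.9%, and P19 alone also held 34, against 14.2%. E14 and 3T3 held 4, P19 and 3T3 held 1, and 3T3 alone held 5 (1.8%, 0.771 to 4.14), against 3.74%. Since presence in 3T3 is bound up with the choice of the bins, these shares are a description.

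Regions without 3T3 were mostly free of any 3T3 peak. Of the 108 regions of E14 and P19, 14 (13%, 7.88 to 20.6) touched a peak of at least 1 of the 3T3 libraries, against 19.6% in the rest. Those that did not touch one lay a median of 21.8 kb from the nearest 3T3 peak, against 30.8 kb in the rest. Among the 92 regions of E14 alone, 48 (52.2%) had no P19 or 3T3 peak at all. P19 replicate 2 had a peak in 37 of the 92 and P19 replicate 1 in 6, so part of this group rests on peaks that P19 replicate 1 lacked. When 1 library of a line was left out, every peak of the line's other library counted as a region, which is a looser rule. Without P19 replicate 1, E14 alone then held 55 regions, and without E14 replicate 2 it held 235. Among the 34 regions of P19 alone, 11 had no peak elsewhere, and E14 replicate 1 had a peak in 21. The counts of 48 and 11 have no matching share from the rest of the chromosomes, so they describe the bins only. P19 alone held 15 regions with E14 replicate 2 left out, 109 without P19 replicate 1 and 74 without P19 replicate 2. Regions of 3T3 alone numbered 12 when either one of the 3T3 libraries was left out.

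The share of E14 and P19 regions that 3T3 also held is bound up with the choice of the bins for few 3T3 peaks, so it is given as a description only. Of the 240 E14 regions in the bins, 39 (16.2%, 12.1 to 21.4) overlapped a reproducible 3T3 region, against 22.7% in the rest of the chromosomes and 23.6% of all E14 regions. Of the 181 P19 regions, 37 (20.4%, 15.2 to 26.9) did, against 23% in the rest and 24.0% of all P19 regions. The E14 regions of the bins had low ranks, with a median percentile of 34 among all E14 regions, against 47.9 in the rest. With the rates of the rest applied to the same score deciles, the share overlapping a 3T3 region would be 19.7% for E14 and 22.4% for P19. With lists of 15462 peaks the E14 share was 32.7% in the bins and 32.1% in the rest, and the P19 share 27.1% and 24.8%.

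**Figure D5:**
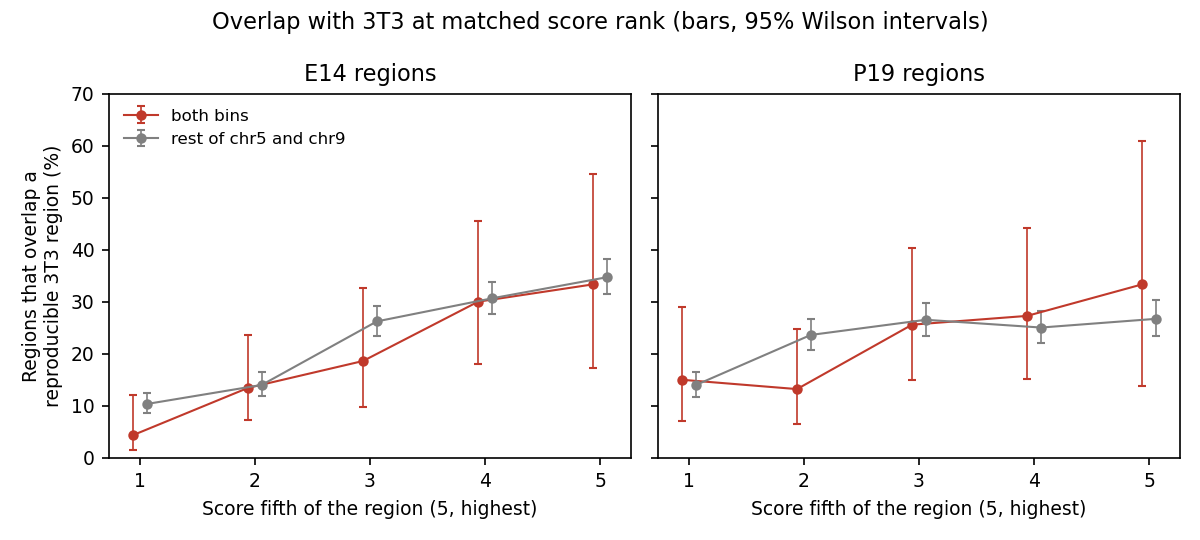
Share (%) of E14 regions (left) and P19 regions (right) that overlap a reproducible 3T3 region, by score rank of the region in steps of 20% (5 is the highest), in the bins (red) and in the rest of chromosomes 5 and 9 (grey). Bars are 95% Wilson intervals. The E14 share in the bins runs from 4.35% in the lowest step to 33.3% in the highest, against 10.3% and 34.7% in the rest.

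The few 3T3 regions of the bins were mostly E14 and P19 regions too. Of 44, 38 (86.4%, 73.3 to 93.6) overlapped a region of E14, while 35 (79.5%, 65.5 to 88.8) overlapped one of P19, against 79.6% and 69.1% in the rest. Of the 3T3 peaks in the bins, 52 of 60 (86.7%) and 61 of 66 (92.4%) touched some E14 or P19 peak, close to 88.7% and 88.0% in the rest. Between E14 and P19, 59.6% (53.3 to 65.6) of the E14 regions in the bins overlapped a P19 region, against 67.6% in the rest and 68.8% of all E14 regions. Of the P19 regions, 80.1% (73.7 to 85.3) overlapped an E14 region, against 78.7% in the rest and 79.4% of all P19 regions. On chromosome 9 this share was 86.0% and on chromosome 5 74.7%.

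At the 34 regions of all 3 lines, 3T3 seldom ranked below the other lines. Both 3T3 percentiles lay above the 4 of E14 and P19 in 12 regions (35.3%, 21.5 to 52.1), against 28.1% of such regions in the genome and 26.3% in the rest of the chromosomes. The interval takes in both of those comparison shares. Both 3T3 percentiles lay below in 3 regions (8.82%, 3.05 to 23), against 27.4% and 23.8%. The bins were chosen on 3T3 against the other lines, so these shares are a description. Over the 34 regions, the Spearman correlation of percentiles within a line was 0.80 for the E14 pair, 0.84 for the P19 pair and 0.78 for the 3T3 pair. An E14 library against a P19 library gave 0.58 to 0.76. Against a 3T3 library, E14 gave 0.15 to 0.33 and P19 gave -0.17 to 0.24. These are correlations across regions, which share libraries and are not replicates.

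The following regions were picked by mean percentile, the first 3 of each combination of lines, and their scores have no common scale across lists. The highest region of all lines, chr5:128096899-128098100, scored 1441 and 771 in E14, 380 and 471 in P19, with 586 and 914 in 3T3. It stood above percentile 93 in both E14 and both 3T3 libraries, and at 78.7 and 80.5 in P19. The second, chr5:125341653-125342877, scored 1393 and 557 in E14, 331 and 568 in P19, with 209 and 634 in 3T3. The third, chr5:128355170-128357710, reached 3100 in all 4 E14 and P19 libraries but scored only 133 and 147 in 3T3, at percentiles 60.8 and 48.4. It was 1 of the 3 regions in which both 3T3 libraries ranked below the other lines.

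Regions with the widest gaps between the mean 3T3 percentile and the mean of E14 and P19 were singled out after their values were seen. At chr5:129241541-129242575 the percentiles were 89.2 and 90.5 in E14, 86.4 and 88.5 in P19, with 38.6 and 21.7 in 3T3. At chr5:125820547-125821939 they were 29.4 and 43.3 in E14, 46.8 and 56.1 in P19, with 88.5 and 88.1 in 3T3. At chr9:118834385-118835595 they were 22.5 and 50.6 in E14, 27.9 and 59 in P19, with 83.7 and 85.2 in 3T3. The regions were picked for such a gap, so the separation of the 3T3 libraries from the others follows from the choice.

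Among the regions of E14 and P19, the highest was chr9:117496069-117496884, with scores of 2417 and 2097 in E14, 1190 and 2075 in P19, 53.3 in 3T3 replicate 1 and no peak in 3T3 replicate 2. The second was chr5:125506734-125510084, which spanned 3351 bp and scored 1772 and 3100 in E14, 1092 and 1545 in P19, and 111 in 3T3 replicate 2. The third was chr9:119051253-119053505, with scores of 1803 and 1166 in E14, 1098 and 1519 in P19, and 51.4 in 3T3 replicate 2. All 3 were touched by 1 of the 3T3 libraries, with its best peak there at percentiles 7.77, 38.7 and 1.75. These 3 regions, the highest-ranked of E14 and P19 without 3T3, were therefore not free of 3T3 peaks, whereas 94 of the 108 regions of this kind were.

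Among the regions of P19 alone, chr5:125646116-125647492 scored 3100 in both P19 libraries. E14 replicate 1 had a peak of 53.7 there, as 3T3 replicate 2 had one of 77.2. The next were chr5:125393825-125394904, with P19 scores of 415 and 510, and chr5:126026420-126027588, with 231 and 335. Each of these also had a peak in E14 replicate 1, at percentiles 8.89 and 47.2. All 3 lay on chromosome 5, where 22 of the 34 regions of P19 alone were found.

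The regions of E14 alone ranked lower than the first region of P19 alone. The highest, chr5:129106410-129107790, scored 408 and 256 in E14, at percentiles 81.2 and 72.6, with peaks of 193 in P19 replicate 2 and 220 in 3T3 replicate 2. The others, chr9:117919608-117920588 and chr9:119258341-119259433, scored 591 and 190, and 345 and 249, in E14. Both had a peak in P19 replicate 2 (260 and 186) and none in P19 replicate 1 or in 3T3.

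Few regions joined 3T3 to 1 other line or belonged to 3T3 alone, and 1 of them ranked high in 3T3. At chr5:125955775-125956775, held by E14 and 3T3, the 3T3 scores were 445 and 565, at percentiles 92.4 and 86.4, against 142 and 124 in E14 and 68.4 in P19 replicate 2. The other regions of E14 and 3T3 named by the rule were chr9:119274789-119275772 and chr9:116782324-116782966, with 3T3 percentiles of 25.9 and 15.0, and 0.22 and 33.5. The single region of P19 and 3T3, chr5:125747445-125749366, stood at percentiles 73.2 and 61.4 in P19 and at 16.9 and 24.6 in 3T3, with a peak in E14 replicate 1 as well. Of 5 regions of 3T3 alone, 4 lay on chromosome 5. The first, chr5:125869534-125870752, scored 107 and 270 in 3T3, and chr5:125028718-125029552 scored 118 and 134, with no peak in any E14 or P19 library. The third, chr5:125913915-125914853, scored 88.1 and 191 in 3T3, at percentiles 43.0 and 56.9. It also had peaks in E14 replicate 1 (105, percentile 44.2) and P19 replicate 1 (71.3, percentile 24.2).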

How the data were processed

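Chromatin from sonicated nuclei was precipitated with a DPPA4 antibody and sequenced after Nextera preparation, per the labels. Of the tools, the submitters' processing notes list BWA 0.7.13-r1126, SAMtools 1.3, bcl2fastq 1.8 and CASAVA 1.8, and mm9 as the build. Each deposited list holds, for 1 library, peaks with a score from the authors' peak caller. Peak names begin with MACS; no caller version, threshold or control is given in the sources used here.

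Lines and replicate numbers came from the sample titles. A peak was placed by its start, a region was the union of overlapping peaks (at least 1 bp) of both libraries of a line, and regions of the lines were merged on overlap. Shares, percentile ranks, Wilson intervals and exact permutation tests were computed in Python 3.11.15 with NumPy 2.4.6, pandas 2.3.3 and SciPy 1.17.1, and plotted with Matplotlib 3.10.9, after tests on simulated data. Named regions are the 3 with the highest mean percentile of each of the 7 combinations of lines. The longest stretch without a 3T3 peak and the fullest and emptiest 1 Mb windows of each bin are also named. The bins, lists and rules were chosen with earlier results of these data known. The alternatives were shorter lists, placement by midpoint, the chromosome as denominator, a 50% overlap, regions of either library, a replicate block and the omission of single libraries. No mm9 genome or annotation was used here, so no gene or sequence is given. Coordinates are 1-based.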

Additional observations from a re-analysis of the deposited data

Results flagged for a closer look

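With the bins pooled, their score ranks moved in opposite directions between lines. Every E14 and P19 library had a lower median percentile in the bins than in the rest of chromosomes 5 and 9, and both 3T3 libraries had a higher one. Taken bin by bin, 3T3 replicate 2 was lower in the chromosome 5 bin (49.8 against 52.3 in the rest of that chromosome). Likewise, 3T3 replicate 1 was lower in the chromosome 9 bin (33.3 against 47.8). The 3T3 difference exceeded the E14 difference by 9.90 percentile points and the P19 difference by 9.11. This contrast between lines was not tested, because the bins were chosen on peak shares of the same libraries, and 2 libraries a line allow no p under 0.05. With every list limited to the length of the shortest, the difference of bins and rest was -11.1 in E14, -13.4 in P19 and 1.72 in 3T3.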

How the results depend on the processing

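With every list limited to the length of the shortest, the 3T3 to E14 share ratio was 0.795 in the chromosome 5 bin, 1.07 in the chromosome 9 bin (reversed) and 0.910 in both. The 3T3 to P19 ratio was 0.873, 1.15 (reversed) and 0.992. With the best-scoring 50% of each list these ratios were 0.783, 0.758 (SD over library pairs 0.33) and 0.771 to E14, and 0.828, 0.860 and 0.843 to P19. With the chromosome's peaks as denominator they were 0.639, 0.609 and 0.627, and 0.644, 0.730 and 0.684. The P19 percentile difference of bins and rest was -11.4 with the best 50% and -13.4 with equal lists, and the 3T3 difference 6.89 with the best 50%. Shorter lists leave fewer peaks. The cause of the other shifts was not tested.

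The best 50% gave 14 regions of all lines, 43 of E14 and P19, 1 of E14 and 3T3, 33 of E14, 19 of P19 and 8 of 3T3 alone. Equal lists gave 10, 17, 7, 18, 17 and 23, and 3 of P19 and 3T3. Regions of either library numbered 60 for all lines, 193 for E14 and P19, 3 for P19 and 3T3, 170 for E14, 81 for P19 and 8 for 3T3 alone. A 50% overlap left 0 of P19 and 3T3. With equal lists 32.7% of E14 and 27.1% of P19 regions in the bins overlapped 3T3. Widths relative to the rest were 1.00 in E14, 0.992 in P19 and 1.09 in 3T3 with the best 50%, and 1.04 in E14 and 1.07 in P19 with equal lists.

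Leaving out each library in turn moved the E14 to P19 ratio in the chromosome 5 bin from 0.964 (without E14 replicate 1) to 1.08, with 1.00 without P19 replicate 2, so its direction turned. In both bins 3T3 to E14 ranged from 0.556 to 0.593 and 3T3 to P19 from 0.622 to 0.641. Regions ranged from 0 to 7 for E14 and 3T3, 0 to 3 for P19 and 3T3, 55 to 235 for E14, 15 to 109 for P19 and 4 to 12 for 3T3 alone. The share overlapping 3T3 ranged from 11.1% to 21.2% of E14 and from 14.7% to 27.6% of P19 regions. In these ranges of regions and shares, a line with a library left out needed a peak only in its other library, which is a looser rule.

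With a replicate block the 3T3 to E14 ratio was 0.572, 0.577 and 0.574, the 3T3 to P19 ratio 0.584, 0.689 and 0.632, and the E14 to P19 ratio 1.02, 1.19 and 1.10. No call changed. Replicate differences over 536 bins correlated at -0.0666 between E14 and P19, 0.277 between E14 and 3T3 and 0.0141 between P19 and 3T3. These values cannot decide whether libraries of equal number were handled together, and the main ratios do not pair them. Read depth is unknown, and the 60 and 66 peaks of 3T3 limit every 3T3 value.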
